A study of Mus musculus with 6 samples.

Results

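Ndufs5, a subunit of mitochondrial complex I, and BC002163, a nearly identical processed copy of it on another chromosome, are 2 of the 24404 gene rows in the count table of this series. They were selected on their read counts in KO-TAC against WT-TAC, as the rows with these symbols, so their values and those of their sum in that contrast are a description and carry no test. RNA of mouse hearts was sequenced in a study of microRNA-204 in the cardiac hypertrophy that pressure overload brings about. WT-TAC, the wild-type group, and KO-TAC, the group whose labels give a miR-204-/- genotype, have 3 libraries each. Transaortic constriction, in which the aorta is narrowed so that the left ventricle pumps against a higher pressure, had been done 5 weeks earlier for all 6 libraries; both groups share it, and hearts without surgery were not analysed here. The sources used here do not give the number of animals per library, their strain, sex and age, or how the deletion was made, and p-values cover only the spread between these samples. The count column of KO-TAC 3 carries the number that the labels give to WT-TAC 3, a library of the other genotype, in place of its own. The library index in the column name, found in no other label, gave its place, and the values of the pair are also given without it.

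Complex I takes electrons from NADH and passes them to ubiquinone while it pumps protons out of the mitochondrial matrix, and heart muscle, which beats on oxidative metabolism, holds a great deal of it. A core that carries the electrons is surrounded by accessory subunits that build and hold the complex together. NDUFS5 is one of these accessory subunits; it sits on the intermembrane space face and is fixed by disulfide bonds between paired cysteine motifs. A processed pseudogene arises when a messenger RNA is reverse transcribed and inserted elsewhere in the genome, which leaves a copy without introns, and reads of the copy and of its parent can then be hard to tell apart.

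In GENCODE M21 annotation of GRCm38, Ndufs5 (ENSMUSG00000028648.13) lies at chr4:123712710-123718202 on the minus strand. Its first listed transcript holds 525 bases in 3 exons, with 92 bases before the coding sequence, 321 coding bases with the stop codon and 112 bases after it. Introns of 2031 and 2937 bases part the exons. BC002163 (ENSMUSG00000081824.5) is annotated as a processed pseudogene of 1 exon and 319 bases at chr16:42955631-42955949 on the plus strand. It lies inside Zbtb20, a zinc finger transcription factor gene at chr16:42875881-43642602 on the same strand. Of the 21 Zbtb20 transcripts 6 span the copy and 0 have an exon on it, so the copy is intronic. RefSeq, on the same build, lists the locus as Ndufs5-ps, a transcribed pseudogene of 500 bases at chr16:42955580-42956079. The sources used here do not say which of these extents was counted.

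The annotated copy aligned to the Ndufs5 coding sequence over all 319 bases with 0 gaps, 2 base differences and 99.4% identity. Positions are counted from 1 at the first coding base, with the Ndufs5 base first and the BC002163 base last. The differences were T81C and A105G. Both fall on the third base of a codon and leave the encoded residue as it was. The copy held 106 whole codons with 0 internal stops, and its annotated extent ended 2 bases before the end of the parent's stop codon. The stretch with both differences is shown because a read has to cross it to be assigned by sequence within the annotated copy. It runs from coding base 61 to 130, at chr4:123715950-123716019 (minus strand) and chr16:42955691-42955760 (plus strand) of GRCm38, read 5′ to 3′ with the differing bases in capitals.
Ndufs5: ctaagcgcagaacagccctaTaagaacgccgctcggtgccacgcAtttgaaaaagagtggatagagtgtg
BC002163: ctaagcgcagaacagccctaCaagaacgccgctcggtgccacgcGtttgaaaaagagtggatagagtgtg

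Outside those bases the copy and its parent were identical in runs of 80, 23 and 214 bases. The run of 214 bases covers coding bases 106 to 319, at chr16:42955736-42955949. It is shown because a read that falls wholly within it matches the transcript sequences of both genes equally well. The capitals mark the bases on either side of the junction of exons 2 and 3 in Ndufs5. There 2937 bases of intron separate them in the parent, and they are adjacent in the copy.
Shared run: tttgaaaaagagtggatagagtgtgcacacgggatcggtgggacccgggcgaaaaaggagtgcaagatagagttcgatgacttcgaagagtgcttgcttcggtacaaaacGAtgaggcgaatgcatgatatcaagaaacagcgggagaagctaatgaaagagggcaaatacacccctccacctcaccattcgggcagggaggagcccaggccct

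**Figure D1:**
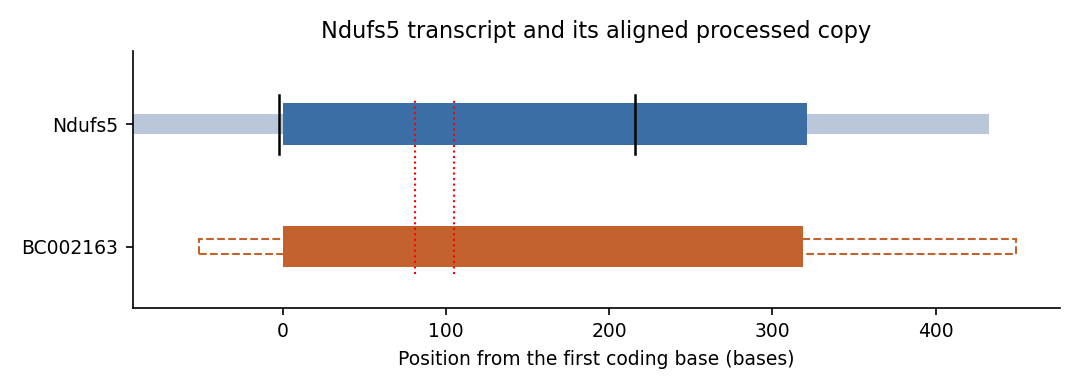
The Ndufs5 transcript (wide blue bar, coding; narrow pale bar, other exon bases; black ticks, exon junctions) and BC002163 (solid orange, the 319 bases annotated by GENCODE; dashed outline, the 500 bases listed by RefSeq), by position in bases from the first coding base. Dotted red lines mark the 2 base differences, which both lie in the first part of the copy, while the remaining 214 bases are identical.

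How far reads of the pair could be told apart was measured on sequence alone. Of the 426 stretches of 100 bases in the Ndufs5 transcript, 115 also occurred, base for base, in BC002163, which left 73.0% of them without a second copy among annotated transcripts. BC002163 has fewer bases of its own: of its 220 stretches of 100 bases, 105 (47.7%) crossed a difference from Ndufs5. The other 206 bases of the Ndufs5 transcript lie outside the annotated copy, so reads there pointed to the parent in this search. BC002163 was the only gene with an annotated transcript that aligned to Ndufs5 over at least 100 bases at 90% identity or more. The read length, the treatment of reads with several matches, and the bases beside the annotated copy were not used in this search, so these shares are not those of the reads. RefSeq lists a longer extent for the copy, and its further bases were not read. Where they match Ndufs5, the share without a second copy would be below 73.0%.

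The counts of BC002163 were low in WT-TAC hearts and high in KO-TAC hearts. There were 27, 58 and 42 counts in the WT-TAC libraries against 518, 270 and 619 in the KO-TAC ones. As CPM, which divides a count by the scaled library size, the levels were 4.25, 6.66 and 5.75 in WT-TAC and 75.7, 32.8 and 91.5 in KO-TAC. Every KO-TAC library lay above every WT-TAC library, and the lowest of them, KO-TAC 2, was still 4.93 times the highest WT-TAC library. Means were 5.55 ± 1.22 CPM in WT-TAC and 66.7 ± 30.4 CPM in KO-TAC (SD, n = 3 each). The fitted log2 fold change of KO-TAC over WT-TAC was 3.57 ± 0.37 (SE), an 11.9-fold difference with an interval of 7.17 to 19.6. By limma-voom the log2 fold change was 3.42 ± 0.53. This contrast chose the gene, so the interval is a description and not a test, and no p is given. In bulk tissue, a change in the number of cells of a type and a change in RNA per cell cannot be told apart. Over all 12487 tested genes, 0.024% were called changed, 4.26% had every KO-TAC library above every WT-TAC library and 3.72% had every KO-TAC library below.

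The spread within a genotype was unequal too. KO-TAC libraries differed up to 2.79-fold among themselves, with KO-TAC 3 highest and KO-TAC 2 lowest, and their coefficient of variation was 45.5%. WT-TAC libraries differed up to 1.57-fold, with a coefficient of variation of 21.9%. By counts, BC002163 ranked 10662, 9603 and 9826 among the rows of the 3 WT-TAC libraries and 1992, 4426 and 1665 among those of the KO-TAC libraries. It thus stood among modestly expressed rows in one genotype and among well expressed ones in the other. Without KO-TAC 3 the log2 fold change of BC002163 was 3.27.

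Ndufs5 itself was at or near 0 counts in both genotypes. It had 0, 1 and 2 counts in WT-TAC and 0, 3 and 0 counts in KO-TAC. These equal 0, 0.115 and 0.274 CPM in WT-TAC and 0, 0.365 and 0 CPM in KO-TAC, so the groups overlap. A count of 0 allows up to 3 counts, which is 0.438 to 0.472 CPM in the libraries at 0. Libraries with 1, 2 or 3 counts have higher limits, and no fold is given. Ndufs5 did not pass the filter on low counts, so 1 of the 2 members was tested across the table. No difference in the Ndufs5 row was detectable at this depth. Of the counts that fell on either row, the Ndufs5 row took 3 of 130 in WT-TAC (2.31%, exact 95% binomial interval 0.478% to 6.60%) and 3 of 1410 in KO-TAC (0.213%, interval 0.0439% to 0.621%). These limits and intervals cover counting error only. The intervals pool the 3 libraries of a group and leave out the spread between them. They also treat reads as independent molecules, which reads copied by PCR are not.

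**Figure D2:**
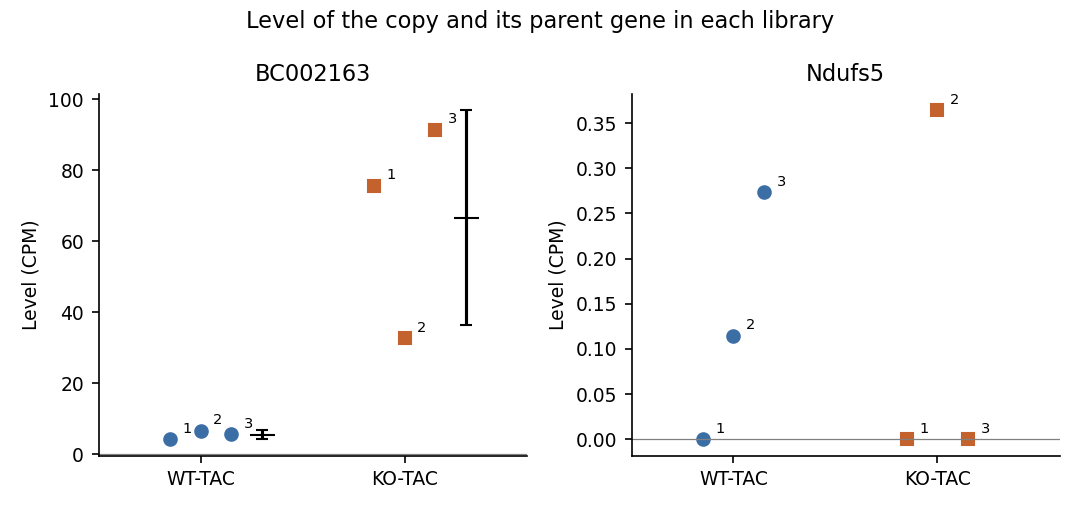
Level in CPM of BC002163 (left) and Ndufs5 (right; its axis spans less than 1 CPM) in each library, numbered by replicate, with blue circles for WT-TAC and orange squares for KO-TAC; the bars beside BC002163 give the mean and SD of 3 libraries. BC002163 lies at 4.25 to 6.66 CPM in WT-TAC and 32.8 to 91.5 CPM in KO-TAC, while Ndufs5 stays at or below 0.365 CPM in all 6.

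Because identical reads could be placed on either row, the rows were also added up. Their sum does not depend on how such reads were divided, though it misses reads that were dropped for matching both. It came to 27, 59 and 44 counts in WT-TAC and 518, 273 and 619 in KO-TAC. Summed levels were 5.68 ± 1.30 CPM in WT-TAC and 66.8 ± 30.2 CPM in KO-TAC (SD, n = 3 each). The groups did not overlap, and the log2 fold change of the sum was 3.54 ± 0.37 (SE), 11.6-fold with an interval of 7.04 to 19.2. Without KO-TAC 3 it was 3.24 on the log2 scale. With at most 3 counts in the Ndufs5 row, the sum could differ little from the BC002163 row. Which locus the counted RNA came from was not tested.

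Since Ndufs5 belongs to complex I, the summed level was set beside those of the other subunits on a scale per kilobase of transcript. Nearly all of the sum is the BC002163 row, and any reads dropped for matching both rows are missing from it. It need not equal the level of Ndufs5 messenger RNA. With the 525 bases of the Ndufs5 transcript as length, the sum stood at 8.09, 12.9 and 11.5 CPM per kilobase in WT-TAC and at 144, 63.2 and 174 in KO-TAC. The 35 others are subunits encoded in the nucleus, and those encoded by mitochondrial DNA were not on the list. Of the 30 accessory subunits listed, 29 were in the count table, Ndufs5 among them, and Ndufb1 was not analysed. The median of the 35 was 179, 235 and 216 CPM per kilobase in WT-TAC and 227, 237 and 242 in KO-TAC. In WT-TAC the pair was thus at 4.52%, 5.49% and 5.32% of the median subunit, and 0 of the 35 others were below it in any of the libraries. In KO-TAC the pair was at 63.6%, 26.7% and 72.0% of the median, with 9, 2 and 12 others below it. The lowest other subunit in each WT-TAC library, Ndufb4 or Ndufab1, stood at 32.7 to 48.2 CPM per kilobase, above the pair. The highest in every library was Ndufb9, at 568 to 1074 CPM per kilobase.

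The choice of length bears on the KO-TAC positions. When every gene was divided by the joined length of all its annotated exons, 13, 4 and 13 of the other 35 subunits lay below the sum in KO-TAC and 0 in each WT-TAC library. When BC002163 alone was divided by its own 319 bases, the counts were 18, 5 and 21 in KO-TAC and again 0 in WT-TAC. Under all 3 lengths the WT-TAC level was under those of all 35 others and the KO-TAC level was within their range.

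**Figure D3:**
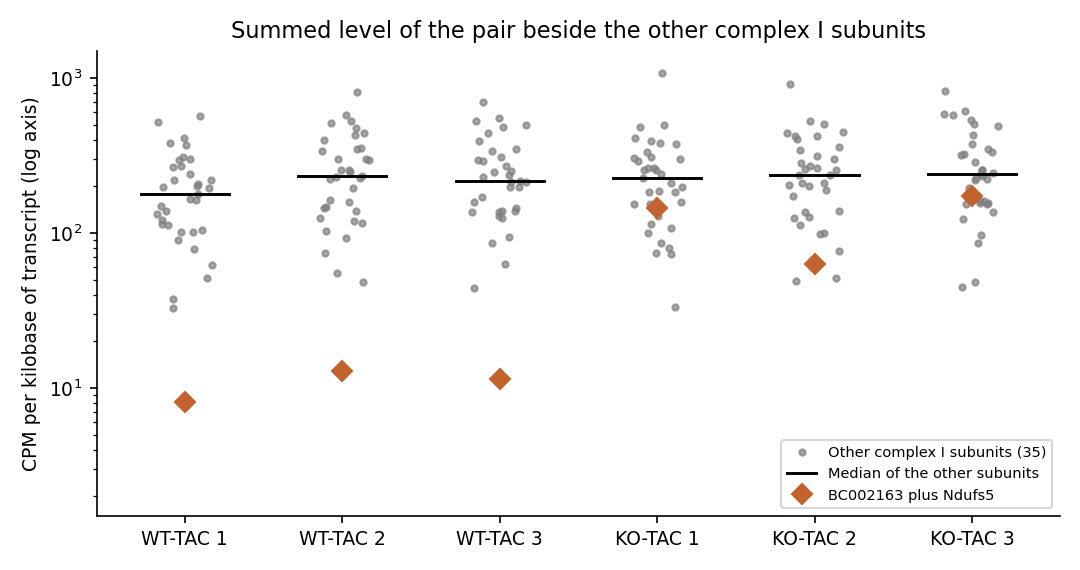
CPM per kilobase of transcript (log axis) of the 35 other complex I subunits (grey points) and of BC002163 plus Ndufs5 (orange diamonds) in each library, with the median of the others as a black bar. The pair is below all 35 others in the 3 WT-TAC libraries, at 8.09 to 12.9, and among them in the 3 KO-TAC libraries, at 63.2 to 174. Any reads dropped for matching both rows are missing from its sum.

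The other complex I subunits were not used in choosing the pair, so they could be tested, by the quasi-likelihood method of edgeR with p adjusted by Benjamini-Hochberg over all tested genes. Of the 35, 0 were called, 0 had an unadjusted p under 0.05, and DESeq2 and limma-voom called 0 as well. Over all 12487 tested genes, edgeR called 0.024% and 366 had an unadjusted p under 0.05. The log2 fold changes of the 35 ran from −0.19 to 0.43, with 31 above 0 and 4 below. The median was 0.17, beside 0.0012 over all tested genes. It was 0.077 over the 7 listed core subunits, which carry the redox centres, and 0.21 over the 28 accessory ones. Leaving out WT-TAC 1 gave a median of 0.0095 over the 35, and leaving out KO-TAC 3 gave 0.088. Counts of the 35 did not fall below 202 in any library, where the Ndufs5 row had at most 3.

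Of the 35, 3 had every KO-TAC library above every WT-TAC library and 0 the reverse, against shares of 4.26% and 3.72% over all tested genes. Among these, Ndufb9, a membrane arm accessory subunit, measured 400, 575 and 497 CPM in the WT-TAC libraries against 756, 640 and 585 CPM in the KO-TAC ones. Its log2 fold change of 0.43 ± 0.21 had an adjusted p of 0.999 in edgeR. Ndufb2, another membrane arm subunit, went from 80.7 ± 16.2 to 107 ± 5.30 CPM (SD, n = 3 each). Its log2 fold change was 0.40 ± 0.19. Ndufa7 had 62.6 ± 7.57 CPM in WT-TAC against 79.6 ± 13.5 CPM in KO-TAC, and its groups overlapped. At the low end Ndufb10 had a log2 value of −0.19 ± 0.19, Ndufc2 of −0.14 ± 0.24, and the core subunit Ndufv2, which holds an iron-sulfur cluster, of −0.079 ± 0.21. None of these passed the test.

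Subunits of the same intermembrane space face, and the machinery that imports them, give the closest context for Ndufs5. Ndufa8 encodes a subunit with paired cysteine motifs like those of NDUFS5. Its levels were 143, 202 and 171 CPM in WT-TAC and 207, 232 and 191 CPM in KO-TAC, so the groups overlapped, with a log2 fold change of 0.29 ± 0.19. Ndufb7, of the same kind, had 0.22 ± 0.21, with means of 196 ± 49.2 and 229 ± 29.3 CPM in WT-TAC and KO-TAC. Ndufb10, whose product also carries such cysteines, had means of 404 ± 23.3 and 354 ± 45.4 CPM. The adjusted p in edgeR was 0.999 for all 3.

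Chchd4 encodes the oxidoreductase that traps such proteins in the intermembrane space by oxidising their cysteines. Its means in WT-TAC and KO-TAC were 22.9 ± 5.46 and 28.6 ± 7.60 CPM, with a log2 fold change of 0.32 ± 0.27. Gfer, the sulfhydryl oxidase that reoxidises it, had 15.8 ± 4.26 and 10.5 ± 2.15 CPM and a log2 fold change of −0.58 ± 0.31. Aifm1, a flavoprotein that anchors the Chchd4 product, had 93.0 ± 13.6 and 107 ± 20.9 CPM and a log2 fold change of 0.20 ± 0.20. The groups overlapped for each of these import factors, and their adjusted p was 0.999 in edgeR. Of the 18 listed assembly factors of complex I, 14 were in the table; 0 of them were called by edgeR, DESeq2 or limma-voom and 0 had an unadjusted p under 0.05, with 7 above 0, 7 below and a median of 0.040.

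Some other complex I genes also have near-identical copies. Among the 35, 4 shared some exact stretches of 100 bases with another annotated gene. At that length Ndufb4, which shared stretches with Ndufb4c, had the smallest share without a second copy, 66.6%, below the 73.0% of Ndufs5. At 50 bases the order was the other way, with 63.0% for Ndufb4 and 58.8% for Ndufs5, and more subunits shared stretches. Both shares of Ndufs5 leave out the further bases that RefSeq lists for BC002163. Means of Ndufb4 were 49.0 ± 15.4 and 62.7 ± 30.1 CPM in WT-TAC and KO-TAC, with a log2 fold change of 0.35 ± 0.33. Ndufs3 (80.1%, sharing with Gm12251) had 135 ± 22.3 and 139 ± 24.3 CPM. Ndufa12 (82.3%, sharing with Gm15920) had 128 ± 14.3 and 124 ± 36.8 CPM. Ndufab1, the mitochondrial acyl carrier protein (90.5%, sharing with Gm4459), had 151 ± 18.9 and 154 ± 32.7 CPM. Each of these 4 parent rows had 202 counts or more in every library. Rows of those 4 copies were not analysed here.

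A wider view came from every tested row annotated as a processed pseudogene, an inspection added after the values were seen. There were 23 such rows, and 18 had a protein-coding parent in the table with at least 90% identity over at least 100 bases. BC002163 took 97.7% of the mean CPM of copy and parent in WT-TAC and 99.8% in KO-TAC. In the other 17 pairs the copy took 0.764% to 47.5% in WT-TAC (median 4.37%) and 0.301% to 43.2% in KO-TAC (median 4.71%). BC002163 was the 1 copy above 50%. The next was Rpl14-ps1, a copy of the ribosomal protein gene Rpl14 at 98.9% identity, with 47.5% and 43.2%. Morf4l1-ps1, at 99.8% identity to the chromatin gene Morf4l1, took 5.24% and 4.71%, and Rpl37rt, at 99.7% identity to Rpl37, took 9.40% and 6.46%. Gm12338, identical over 192 bases to Cox7c, a subunit of cytochrome c oxidase, took 15.5% and 14.6%. Among less similar copies, Gm10509, at 96.5% identity, took 42.8% and 38.6%, and Gm13315, at 91.8%, took 0.764% and 0.301%. The 22 pseudogene rows other than BC002163 had log2 fold changes from −1.19 to 1.94, with 12 above 0 and 10 below. Both ends were rows of low level: Gm16523 (SE 0.74, mean 1.76 CPM) and Rps15a-ps4 (SE 0.75, mean 2.39 CPM). By edgeR 0 of the 22 were called, beside 0.024% of all tested genes.

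**Figure D4:**
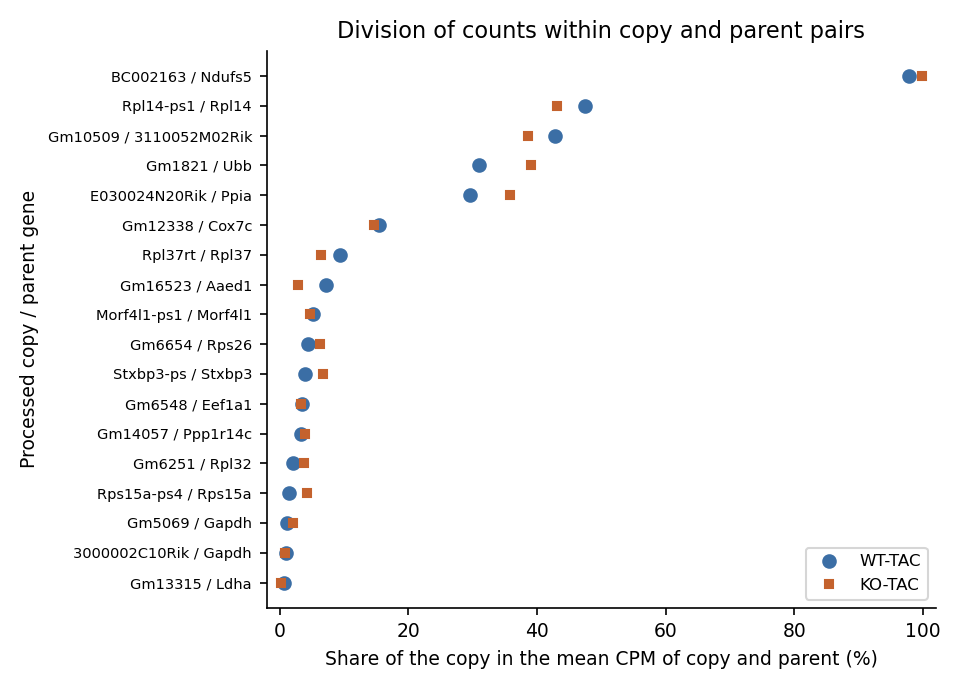
Share of the processed copy in the mean CPM of copy and parent (%), for 18 pairs ordered by their WT-TAC share, with blue circles for WT-TAC and orange squares for KO-TAC. BC002163 stands at 97.7% and 99.8%, and the other 17 copies at 47.5% or less.

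Zbtb20, the gene whose intron holds BC002163 on the same strand, had levels that overlapped between the genotypes. Its counts were 981, 1607 and 1541 in WT-TAC and 1158, 1584 and 1427 in KO-TAC. That is 183 ± 28.4 CPM in WT-TAC and 191 ± 20.9 CPM in KO-TAC (SD, n = 3 each). The log2 fold change was 0.058 ± 0.19, with an adjusted p of 0.999 in edgeR. Zbtb20 was named for its position, outside the rule for named genes, because it is the host of the copy.

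The nearest 5 tested genes on each side of BC002163 and of Ndufs5 were examined in the same way. Of these 20 genes 0 were called by edgeR, DESeq2 or limma-voom, and 1 had an unadjusted p under 0.05 in edgeR. Over all 12487 tested genes, edgeR called 0.024% and 366 had an unadjusted p under 0.05. Of the 20, 1 had every KO-TAC library above every WT-TAC library and 1 the reverse. The shares over all tested genes were 4.26% and 3.72%. The log2 fold changes of the 20 ran from −1.41 to 1.14, with 8 above 0, 12 below and a median of −0.045. Around BC002163, at distances of 43566 to 4242357 bases, Qtrtd1, which encodes a subunit of a transfer RNA modifying enzyme, had the highest value. Its counts were 25, 40 and 32 in WT-TAC and 59, 100 and 52 in KO-TAC, and its groups did not overlap. Its log2 fold change was 1.14 ± 0.38, with an unadjusted p of 0.0104 and an adjusted p of 0.999 in edgeR. Gramd1c, a gene of the family of sterol transfer proteins, was lowest at −1.41 ± 0.72; its counts of 22, 19 and 16 in WT-TAC lay above the 6, 7 and 8 in KO-TAC. Between them, 2610015P09Rik had −0.10 and Atp6v1a, a subunit of the vacuolar proton pump, −0.051. Mir568, which overlaps the end of Zbtb20, had 0.58. On the other side Gm19522 had −1.31 ± 0.86 on few counts, Upk1b had −0.67, Lsamp −0.10, Arhgap31 −0.054 and B4galt4 0.081.

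Around Ndufs5, at distances of 16357 to 982499 bases, the 10 genes ranged from −0.79 to 0.50 with 5 above 0 and 5 below. Macf1, which links actin to microtubules and is the nearest tested gene on one side, had means of 1475 ± 130 and 1469 ± 139 CPM in WT-TAC and KO-TAC, a log2 fold change of −0.0064 ± 0.20. Akirin1, the nearest on the other side, had 24.0 ± 7.23 and 28.9 ± 1.45 CPM and 0.27 ± 0.26. Of the rest, Nt5c1a had 0.50, Heyl, a Notch target, 0.24, Utp11l 0.19, Fhl3 0.11, Pabpc4 −0.038, Rragc −0.16, Ppie −0.18 and Mycbp −0.79.

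**Figure D5:**
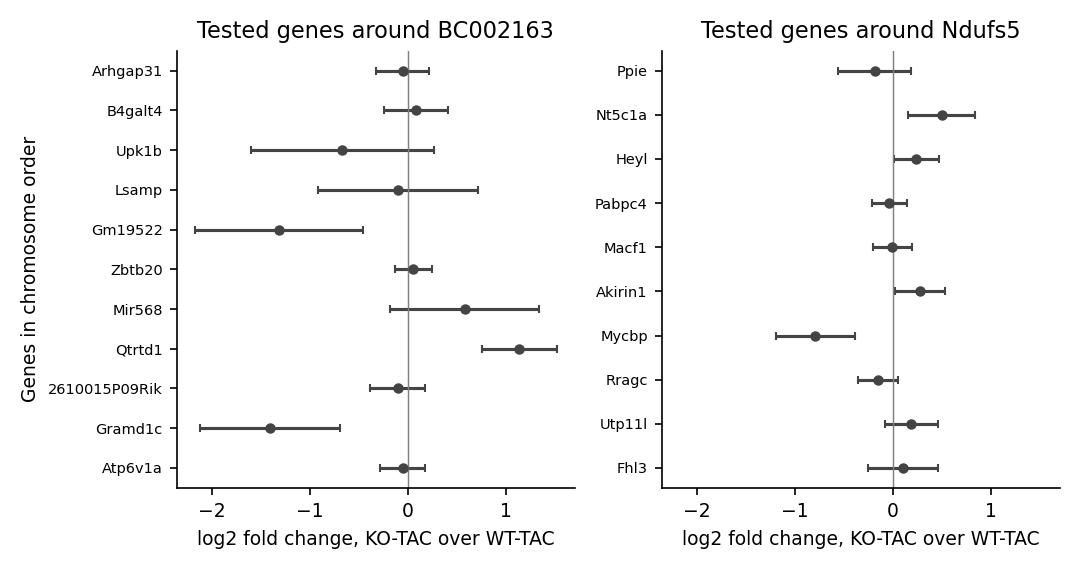
Log2 fold change of KO-TAC over WT-TAC (points) with its standard error (bars) for the tested genes around BC002163 (left, with the host Zbtb20) and around Ndufs5 (right), in chromosome order. Values run from −1.41 to 1.14, and BC002163 itself, at 3.57, lies beyond the axis.

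The genes whose levels followed those of BC002163 most closely were found by Pearson's r of log2 CPM over the 6 libraries, among 12486 other tested genes. Because the genotypes do not overlap for BC002163, r is high for any gene with a like split, and the libraries and their scaling are shared; it is a description with no p. In all, 72 genes had r above 0.9 and 69 had r below −0.9. The highest was Zfp451, a SUMO ligase gene, at r = 0.993. Its means in WT-TAC and KO-TAC were 30.5 ± 0.33 and 35.2 ± 1.51 CPM, and its log2 fold change was 0.21 ± 0.20. Rbm45, an RNA-binding protein gene (r = 0.981), had 12.1 and 19.2 CPM and a log2 fold change of 0.67 ± 0.26. Fgf18, a fibroblast growth factor gene (r = 0.981), had 0.76 ± 0.45, and Snapc1, a subunit of the factor that starts small nuclear RNA transcription (r = 0.978), had 0.39 ± 0.23. Fam124b (r = 0.979) had the widest difference of these 5, with 0, 5 and 3 counts in WT-TAC and 45, 23 and 41 in KO-TAC. Its log2 fold change was 3.83 ± 0.85. Likeness to BC002163 chose this gene, so no test of it is given. Over the other complex I subunits r ranged from −0.66 to 0.84 with a median of 0.43, and Zbtb20 had 0.26.

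Library totals ran from 6411538 to 8571737 counts and overlapped between the genotypes. Heart muscle markers matched the labelled tissue: all 8 cardiomyocyte genes of the list were tested, and their levels summed to 156619 to 168943 CPM in WT-TAC and 135474 to 209498 in KO-TAC. The 4 smooth muscle markers were the list whose sums parted the genotypes in the order WT-TAC above KO-TAC, with 197 to 258 CPM in WT-TAC and 65.0 to 176 in KO-TAC; 2 of the 4 genes did not overlap, and 0 were called by edgeR, DESeq2 or limma-voom, with 1 at an unadjusted p under 0.05 in edgeR. Over all tested genes 3.72% had every KO-TAC library below and 0.024% were called. Endothelial sums were 633 to 770 and 742 to 999 CPM; all 5 of these genes had a log2 fold change above 0, 1 of them did not overlap and 1 had an unadjusted p under 0.05. Macrophage sums were 119 to 142 and 117 to 189, fibroblast sums 1087 to 2267 and 929 to 2194, atrial sums 2996 to 8746 and 415 to 7658, and adipocyte sums 0 to 28.8 and 2.96 to 18.3. Of the 4 erythroid markers, 3 (Hba-a1, Hbb-bs and Hbb-bt) were at 0 in every library. Whether a 0 in these rows means absent RNA was not tested. The tested erythroid marker, Alas2, had 40.6 to 71.6 CPM in WT-TAC against 22.6 to 52.5 CPM in KO-TAC, a log2 fold change of −0.71 with an unadjusted p under 0.05, and its groups overlapped. The part of these cell types in the BC002163 difference was not tested.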

How the data were processed

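Heart RNA was sequenced as paired ends from 6 TruSeq libraries, plain or stranded, per the labels' protocols. The sources used here do not say which kit a library had. The authors deposited raw counts per gene symbol, with no normalization. HISAT2 2.1.0, Subread, edgeR and FastQC are named in the submitters' processing notes, as are the builds mm10 and GRCm38. The sources used here do not say how reads with several matches were counted. All sample columns were used.

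Both members and every gene list were chosen with earlier results of these data known. Counts were tested in R 4.3.3 with edgeR 4.0.16: filterByExpr (minimum count 10), TMM scaling and a robust quasi-likelihood fit of KO-TAC against WT-TAC with no covariate, which left 12487 genes. A gene was called at a Benjamini-Hochberg adjusted p under 0.05. CPM use the TMM-scaled sizes, with a prior count of 2 for log2 CPM. In edgeR fits, SE is the absolute log2 fold change divided by the square root of the quasi-likelihood F statistic. Fold intervals span 1.96 SE each way, a normal multiple that is narrow for 3 libraries a group. The sum of both rows was refitted in place of them. With a common biological coefficient of variation of 0.286, spread between samples, more than depth, limits genes of moderate counts. The procedure was tested on simulated counts.

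Symbols were matched to GENCODE M21 (23358 by current symbol, 669 by an older one, 377 unmatched). Exact stretches were searched on both strands of annotated transcripts; a search of the whole genome, as planned, was not done here. Each gene's lowest-numbered transcript gave its length. Sequences are from GENCODE M21 transcripts of GRCm38, and the 500-base extent from RefSeq on GRCm38.p6.

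Named genes are the members, rows that align to Ndufs5, the nearest 5 tested genes on each side of both members, the 5 genes most correlated with BC002163, Ndufa8, Ndufb7, Ndufb10, Chchd4, Gfer, Aifm1, the 3 complex I subunits with the smallest p each way, and any called subunit or assembly factor. The subunits with exact copies, Zbtb20 and the pseudogene pairs were named after their values were seen. The alternatives tried were no scaling, RLE and upper-quartile scaling, a minimum count of 30 or no filter, DESeq2 1.42.0, limma-voom (limma 3.58.1), the replicate number as a block, each library left out, and other window lengths.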

Additional observations from a re-analysis of the deposited data

How the results depend on the processing

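The log2 fold change of BC002163 stayed between 3.42 (limma-voom) and 3.58 (DESeq2) under other scalings, filters and tools, and between 3.27 and 3.90 with 1 library left out; the summed rows gave 3.24 to 3.87 with 1 left out. The count of called genes in the whole table, 3, was 21 with no filter on low counts, 16 by DESeq2, 0 by limma-voom (376 at an unadjusted p under 0.05) and 0 to 7 with 1 library left out: 0 without WT-TAC 1 (there 437 had an unadjusted p under 0.05), 2 without KO-TAC 1, 7 without KO-TAC 2 and 6 without KO-TAC 3. With the replicate number as a block it was 6 (574 at an unadjusted p under 0.05 in edgeR, beside 366 in the main fit), and BC002163 had 3.45. Deviations of same-numbered libraries correlated at 0.135, 0.011 and 0.257, and those of the other combinations at −0.223 to 0.146. The numbers are not said to pair the samples and were not taken to do so. With 3 libraries a group these correlations cannot decide it. The median of the 35 other subunits ran from 0.0095 to 0.22 with 1 library left out; 0 of them and 0 of the neighbours were called in any setting. The share of Ndufs5 stretches without a second copy was 58.8% at 50 bases, 67.6% at 75 and 82.7% at 150. Ndufab1 turned to −0.0038 without scaling. Of 41 named genes, 17 changed sign with some library left out: 2610015P09Rik (−0.21 to 0.073), Arhgap31 (−0.30 to 0.24), Atp6v1a (−0.21 to 0.062), B4galt4 (−0.27 to 0.28), Fhl3 (−0.14 to 0.45), Lsamp (−0.91 to 0.37), Macf1 (−0.074 to 0.064), Mir568 (−0.055 to 1.73), Ndufa12 (−0.21 to 0.18), Ndufab1 (−0.083 to 0.20), Ndufb4 (−0.11 to 0.56), Ndufc2 (−0.47 to 0.064), Ndufs3 (−0.092 to 0.17), Ndufv2 (−0.27 to 0.031), Pabpc4 (−0.11 to 0.070), Upk1b (−2.28 to 0.32) and Zbtb20 (−0.055 to 0.17). The cause of these shifts was not tested. With 3 libraries a group, small differences in complex I genes could be missed, and at 0 to 3 counts per library no difference in the Ndufs5 row was detectable.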
